A study of Mus musculus with 12 samples.

Results

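The resting transcriptome of IEC4.1 cells was read from the 3 siR_Ctrl libraries, chosen by their labels from 12 libraries in the series. IEC4.1 is a mouse cell line that the labels describe as intestinal epithelial. The siR_Ctrl cells received a non-specific scrambled siRNA for 24 h and no IFN-γ. The other 9 libraries form 3 groups of 3, namely siR_Ctrl with IFN-γ, siR_Nostrill (siRNA against the lncRNA Nostrill) and siR_Nostrill with IFN-γ, and they enter only the check of the line's markers. All 4 groups are the same line and all were transfected with an siRNA, so a resting level here is the level of a transfected culture. The 3 siR_Ctrl libraries are described as biological replicates in the study, and SDs below are between these libraries.

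The question was which genes the unstimulated line used and which it lacked, and no condition was compared with another. The intestinal epithelium is a single layer of polarised cells held together by E-cadherin (Cdh1) junctions, with Epcam on the surface and filaments of the simple keratins Krt8 and Krt18 inside. Its stem cells lie in the crypts and give rise to absorptive enterocytes and to goblet, Paneth, enteroendocrine and tuft cells under factors such as Cdx2 and Hnf4a. The connective tissue beneath is made by fibroblasts, which use vimentin filaments and secrete fibrillar collagens.

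Levels are given as FPKM (fragments counted for a gene, scaled for the length of its transcript and for sequencing depth), a scale per transcript length on which genes can be compared, as the mean ± SD of n = 3 libraries. A gene was called expressed when its FPKM was at least 1 in each of the 3 libraries, and near or below detection when its mean FPKM was under 0.1. Of 15002 listed genes, 10220 were expressed (68.1%) and 2569 were near or below detection (17.1%). The libraries held 17952446 to 18253330 reads on genes, and 616 listed genes had no read in any of them. Every listed gene had reads in at least 1 siR_Nostrill library. RefSeq counts 21900 protein-coding genes, of which 10193 were expressed here (46.5%) and 7021 are not in the table. Shares of gene lists given here count members that are not listed and stand beside that 46.5%. The lists were chosen with earlier results of these data known, so a share describes its own list only. The level of a gene that is not in the table was not analysed here. The TPM (transcripts scaled to a fixed total) of the listed genes fell short of that total by 31.7, 19.8 and 22.3 in the 3 libraries, and met it to within 0.1 in each siR_Nostrill library. If the total was set over all genes, that shortfall is the most that all genes outside the table could hold together. At the threshold, Igsf9 was inside with a lowest FPKM of 1 and Cblb was outside with 0.99.

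The defining markers of an epithelium went against the label. Of Epcam, Cdh1, Krt8 and Krt18, the listed Krt8 and Krt18 were not expressed. Krt8 had FPKM values of 0.21, 0.24 and 0.14 in the 3 libraries, from 17 reads in all (exact 95% Poisson interval 9.90 to 27.2 reads). Krt18 had FPKM values of 0, 0.05 and 0.10 from 3 reads (0.619 to 8.77). Such intervals cover counting error only. Epcam and Cdh1 are not listed. Over all 12 libraries of the series, the highest Krt8 FPKM was 0.28 and the highest Krt18 FPKM was 0.10, so all 4 groups shared this. In a bulk sample, fewer cells of a type and less RNA per cell cannot be told apart. The cells are therefore called siR_Ctrl or IEC4.1 cells below.

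By contrast, among the most abundant genes of the siR_Ctrl cells was S100a4, a calcium-binding protein of motile and mesenchymal cells. The filament gene of mesenchymal cells, Vim, was also among the abundant genes. The bases upstream of the start of these 2 genes and of the 3 keratin and adhesion markers with an entry are shown (RefSeq, GRCm38.p6). These genes belong to the check of the label, although Epcam is not listed and has no level here. Capitals mark TATAAA, the TATA box sequence, in the first 2. They mark CAGGTG or its reverse complement CACCTG, the E-box letters that factors of the Snai and Zeb families can bind, in the other 3.
S100a4, chr3:90603710-90603769, plus strand: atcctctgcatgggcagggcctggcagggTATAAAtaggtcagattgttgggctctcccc
Vim, chr2:13574251-13574310, plus strand: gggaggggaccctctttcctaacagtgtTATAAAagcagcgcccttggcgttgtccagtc
Krt8, chr15:102004343-102004467, minus strand: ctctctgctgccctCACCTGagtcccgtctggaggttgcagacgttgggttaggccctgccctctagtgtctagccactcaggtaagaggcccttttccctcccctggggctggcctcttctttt
Krt18, chr15:102027991-102028215, plus strand: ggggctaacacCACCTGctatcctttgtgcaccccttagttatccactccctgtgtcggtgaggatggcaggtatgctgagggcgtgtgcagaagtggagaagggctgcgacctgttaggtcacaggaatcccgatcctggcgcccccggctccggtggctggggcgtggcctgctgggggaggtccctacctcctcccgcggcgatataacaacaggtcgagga
Epcam, chr17:87635779-87635978, plus strand: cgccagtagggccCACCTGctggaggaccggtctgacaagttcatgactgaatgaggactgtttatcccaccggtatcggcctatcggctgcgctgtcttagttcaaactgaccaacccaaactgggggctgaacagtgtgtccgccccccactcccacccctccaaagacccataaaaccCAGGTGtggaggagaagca

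TATAAA began 31 bases before the start of S100a4 and 32 bases before that of Vim. On the sense strand, with its first base 40 to 20 bases before the start, TATAAA was found for 2.22% of the 27025 genes with a RefSeq window. CACCTG began 111 bases before the start of Krt8 and 214 before that of Krt18. Epcam held CACCTG at 187 and CAGGTG at 19 bases before its start. On either strand of the same 250 bases, 17.1% of all genes with a window held CAGGTG or CACCTG. A match of letters is a description of the sequence and not evidence of binding.

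Krt8 and Krt18 did not pass the threshold, whereas 3 other keratins of the lists did, Krt80, Krt19 and Krt10. Krt19, a further simple keratin, had FPKM values of 1.57, 2.76 and 1.22 (1.85 ± 0.807) and was the only expressed gene of 6 simple keratins. Krt7 had a mean FPKM of 0.0933 and Krt20, the keratin of differentiated enterocytes, of 0.107. Of 14 keratins of stratified epithelia, 2 were expressed. Krt80 stood at 14.97, 11.39 and 11.98 FPKM in the 3 libraries. Krt10 had a mean FPKM of 1.54 ± 0.107. The basal keratins Krt5 and Krt14 had 0 and 1 reads in all.

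At the adherens junction, the catenins, which tie any classical cadherin to actin, were abundant. Ctnnb1 (β-catenin) had FPKM values of 180, 139 and 151 and Ctnna1 (α-catenin) of 116, 113 and 115. The expressed cadherin of this list was Cdh2 (N-cadherin), at 28.3, 19.95 and 22.5 FPKM. P-cadherin (Cdh3) had a mean FPKM of 0.0933. In the desmosome, the plaque genes Pkp2 (22.6 ± 1.08 FPKM) and Jup (9.86 ± 1.48 FPKM) were expressed, whereas desmoplakin (Dsp) was at 0.02, 0 and 0.01 FPKM. Of 17 genes of adherens junctions and desmosomes, 9 were expressed (52.9%).

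At the tight junction, 7 of 24 genes were expressed (29.2%). The scaffold gene Tjp1 had a mean FPKM level of 10.4 ± 4.93. The adhesion gene F11r (JAM-A) stood at 25.3 ± 1.76 FPKM and Cgn (cingulin) at 7.21 ± 1.71 FPKM. Cldn12, at 20.9 ± 3.64 FPKM, was the only expressed claudin of the list. Cldn1 had a mean FPKM of 0.167 and Cldn15 of 0.207, and Cldn2, the pore-forming claudin of crypts, had 0 reads. Ocln, Cldn3, Cldn4 and Cldn7 are not listed.

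**Figure D1:**
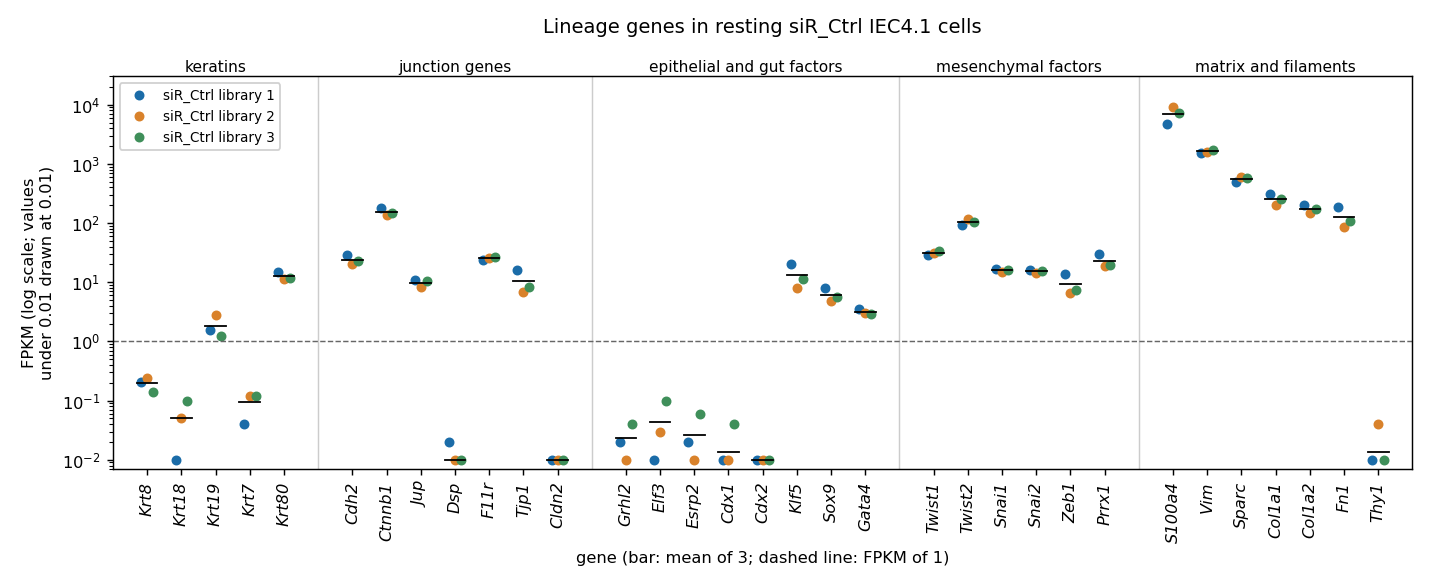
FPKM (log scale) of 33 lineage genes in each of the 3 siR_Ctrl libraries, with a bar at the mean and a dashed line at an FPKM of 1. Krt8 and Krt18 lie at 0.24 or below in every library and the gut factors Cdx1 and Cdx2 at 0.04 or below, while Vim lies at 1536 or above and Twist2 at 94.0 or above.

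Most listed regulators that maintain epithelial identity were not expressed. Of 20 such genes, some of which are not listed, 2 were expressed, both Krüppel-like factors that other cell types use too. Klf5 had FPKM values of 20, 7.97 and 11.5 and Klf4 of 8.34, 6.25 and 7.60. Grhl2, which activates junction genes, had a mean FPKM of 0.0233. Elf3 stood at 0.0433 FPKM and the splicing regulator Esrp2 at 0.0267 FPKM. Grhl1 (0.317 FPKM), Foxa3 (0.113 FPKM) and Rab25 (0.113 FPKM) were not expressed but lay above the limit for near or below detection. Ehf had 0 reads.

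Intestinal transcription factors were expressed in 4 of 21 cases. They included Klf5, Sox9 (6.19 ± 1.59 FPKM), a factor of crypt cells, and Gata4 (3.15 ± 0.352 FPKM), a factor of the proximal gut. Cdx1 had 1 read in all. Cdx2, the master factor of the intestine, had 0 reads, which allows up to 3 reads or a pooled FPKM of 0.0297. Gata6 had a mean FPKM of 0.493 ± 0.127. Many of the 21, among them Hnf4a and Hnf4g, are not listed.

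Listed products of mature intestinal cells were mostly near or below detection, with a median of 0.0133 FPKM over the 15 listed enterocyte genes. Of 37 enterocyte genes, 2 were expressed, the aminopeptidase Anpep (3.71 ± 0.791 FPKM) and Mttp (1.90 ± 0.233 FPKM), which loads lipoproteins. The microvillus gene Vil1 had 2 reads in all, sucrase-isomaltase (Sis) had 1, and Fabp2 and Apoa1 had 0. Among goblet cell genes, 0 of 14 were expressed, and most of the 14 are not listed. The nearest was the membrane mucin Muc1 at 1.05, 0.71 and 1.03 FPKM, below the threshold only in library 2. The secreted mucin Muc2 had 12 reads in all. Of 14 Paneth cell genes only Nupr1, a stress-response gene used by many cells, was expressed (117 ± 34.3 FPKM). The only other listed member was Ang4, with 1 read in all, so the rest of that list has no level here. Of 18 enteroendocrine genes only the peptide hormone gene Cck was, at 48.4, 63.8 and 58.9 FPKM. No other listed member of that list was above 1 FPKM, and most members are not listed. Tuft cell genes were expressed in 2 of 13 cases, the prostaglandin synthase Ptgs1 (65.0 ± 1.09 FPKM) and Dclk1 (3.26 ± 0.525 FPKM). Most tuft cell genes, among them Pou2f3 and Trpm5, are not listed. Of 7 M cell genes, 2 were expressed, Marcksl1 (57.8 ± 3.97 FPKM) and Tnfaip2 (54.3 ± 3.24 FPKM), both used by many cells, and Spib had a mean FPKM of 0.0967.

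Stem cell and crypt genes were expressed in 8 of 20 cases. Cd44, the hyaluronan receptor, had a mean FPKM of 54.0 ± 5.27 and Lrig1, an EGF receptor inhibitor, of 39.3 ± 6.23. Ephb3 (11.2 ± 0.908 FPKM) and Ephb2 (4.14 ± 0.426 FPKM), receptors that position cells along the crypt, were expressed. Lgr5, the marker of cycling crypt stem cells, had 0 reads, which allows a pooled FPKM of up to 0.0147. Ascl2 also had 0 reads, and the Wnt target Axin2 had a mean FPKM of 0.16.

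Genes of fetal-type and regenerating epithelium were expressed in 14 of 18 cases (77.8%), with a median of 34.6 FPKM over the 15 listed. The most abundant were the annexin Anxa1 (600, 659 and 649 FPKM) and osteopontin, Spp1 (496, 488 and 503 FPKM). The TWEAK receptor Tnfrsf12a stood at 371, 513 and 479 FPKM and mesothelin (Msln) at 176, 216 and 198 FPKM. Ly6a (Sca-1), used to mark fetal-type gut cells, had FPKM values of 12.2, 15.1 and 21.2. Several of these genes are also expressed by connective tissue cells. The keratin of the list, Krt7, was not expressed, and Clu is not listed.

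Of 32 fibroblast products and genes of epithelial to mesenchymal transition, 29 were expressed (90.6%). Their median FPKM of the 31 listed members was 23.6, against 6.81 over all listed genes. Because members were chosen with earlier results of these data known, this share and median may reflect that choice. S100a4 had FPKM values of 4714, 9155 and 7378, Vim of 1536, 1590 and 1736, and Sparc, a collagen-binding glycoprotein, of 500, 606 and 585. On FPKM, library 1 was the lowest of the 3 for each of these. TPM was 1.751, 1.36 and 1.444 times FPKM in libraries 1, 2 and 3. On TPM library 1 was still the lowest for S100a4 but the highest for Vim and Sparc. The fibrillar collagen genes Col1a1 and Col1a2 had FPKM levels of 257 ± 55.9 and 175 ± 27.3, and there library 1 was the highest. Col3a1 stood at 75.3 ± 13.7 FPKM and fibronectin (Fn1) at 128 ± 54.5 FPKM.

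All listed transcription factors of that list were expressed. Twist2 had FPKM values of 94.0, 115 and 105, and Twist1 of 29.1, 31.4 and 34.0. Snai1 and Snai2, repressors of Cdh1, had mean FPKM levels of 15.9 ± 0.766 and 15.4 ± 0.931. Zeb1 stood at 9.25 ± 3.89 FPKM, Zeb2 at 5.52 ± 2.30 FPKM and Prrx1 at 23.0 ± 6.33 FPKM. The growth factor receptors Pdgfra (17.2 ± 5.92 FPKM) and Pdgfrb (16.5 ± 3.17 FPKM) were expressed as well. Exceptions were lumican (Lum), at 0.19 ± 0.114 FPKM, and Thy1, a common surface marker of fibroblasts, which had 1 read in all. Fap is not listed. Over all 12 libraries Vim ranged from 1536 to 2056 FPKM and Twist2 from 57.5 to 115 FPKM.

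**Figure D2:**
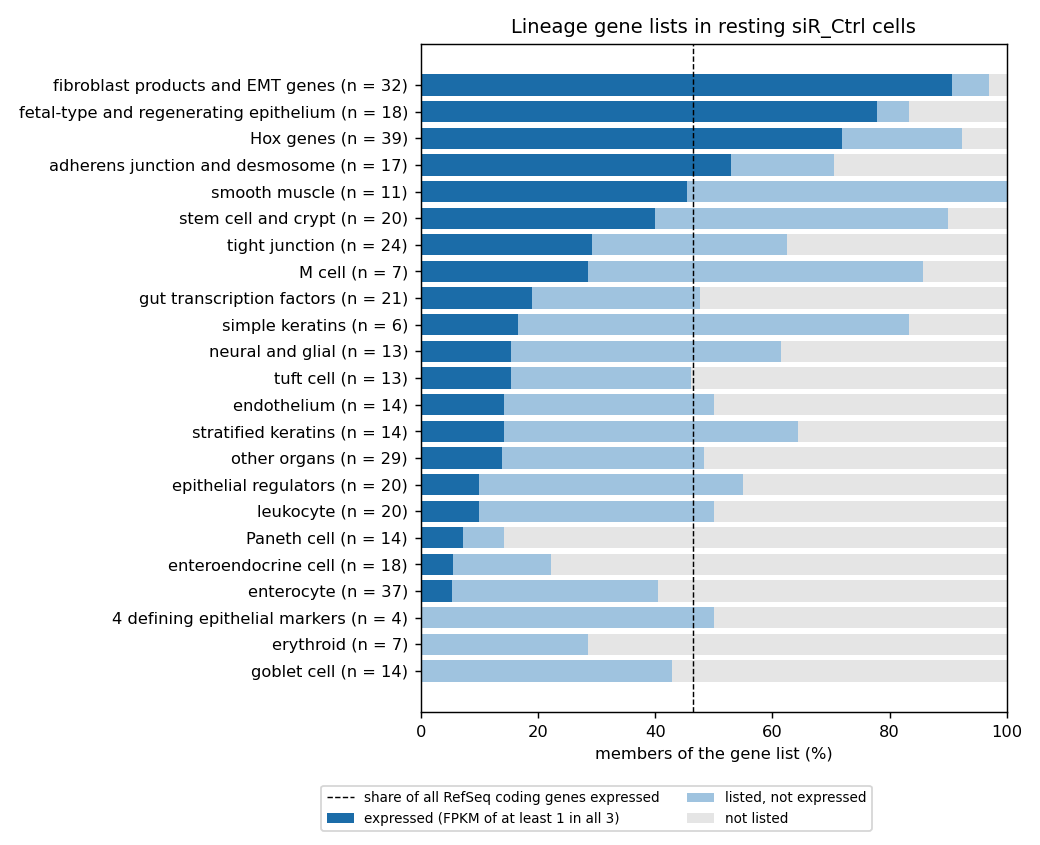
Share of the members of 23 lineage gene lists that were expressed, listed but not expressed, or not listed, with the number of members in brackets. The dashed line is the 46.5% of RefSeq coding genes that were expressed. Of the fibroblast and transition list 90.6% were expressed, and none of the defining epithelial markers, of which 2 are listed. The lists were chosen with earlier results of these data known.

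Of 11 smooth muscle genes, 5 were expressed. Acta2, the actin of smooth muscle and of activated fibroblasts, had FPKM values of 145, 174 and 152, and Tpm2 of 57.4, 71.8 and 70.5. Smoothelin (Smtn), a protein of contractile smooth muscle, stood at 47.9 ± 3.15 FPKM, transgelin (Tagln) at 14.4 ± 3.66 FPKM and the myosin kinase Mylk at 1.56 ± 0.243 FPKM. The contractile genes Myh11, Cnn1 and Des were not expressed, with mean FPKM levels of 0.0667, 0.84 and 0.893, nor was Actg2, at 1.19, 1.66 and 0.98 FPKM.

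Most listed markers of other cell types that a culture could hold were not expressed. Of 20 leukocyte genes, 2 were expressed, Coro1a (1.59 ± 0.358 FPKM) and Cd68 (1.33 ± 0.151 FPKM), and the pan-leukocyte gene Ptprc had 0 reads. Endothelial genes were expressed in 2 of 14 cases, Egfl7 (5.09 ± 1.14 FPKM) and Flt1 (3.50 ± 1.11 FPKM), while Pecam1 and Cdh5 had 6 and 2 reads in all. Of 13 neural and glial genes, Tubb3 and Uchl1 were expressed. Of 7 erythroid genes 0 were expressed, and of 7 Y-linked genes 0 were, with Uty at 0.06 FPKM in each library and the others not listed. Of 29 genes of other organs, 4 were expressed, among them the protease Cela1 (17.7 ± 4.10 FPKM) and the factors Sox2 (15.8 ± 2.19 FPKM) and Nkx2-5 (9.98 ± 0.471 FPKM). The summed FPKM of each of these lists was 3.42 for leukocyte, 9.31 for endothelial, 9.30 for neural and 0.75 for erythroid genes, beside 10683 for the fibroblast and transition list, of which S100a4 (mean FPKM 7082) and Vim (mean FPKM 1621) made up most. These lists differ in size, with 10, 7, 8, 2 and 31 listed members.

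Hox genes, which record position along the body axis, differed in level by paralog number. Mammals carry them in 4 clusters, with low paralog numbers used in anterior and high numbers in posterior tissue. Of 39 genes, 28 were expressed (71.8%). All 27 genes of paralogs 2 to 10 were expressed, against 0 of 3 listed genes of paralog 1 and 1 of 6 listed genes of paralogs 11 to 13. The exception was Hoxb13, at 1.58, 1.15 and 1.47 FPKM. Hoxc13 was just outside with 1.11, 0.87 and 1.09 FPKM, and Hoxd3 was just inside with 1.33, 1.02 and 1 FPKM and fell outside with DESeq2 size factors. At an FPKM of 5 in each library, 11 Hox genes passed. The highest were Hoxb9 at 39.0, 34.3 and 37.0 FPKM, Hoxc4 at 21.5, 23.1 and 23.7 FPKM and Hoxb6 at 22.4, 23.4 and 21.7 FPKM. Hoxb9 lay above the others in every library, whereas the ranges of Hoxc4 and Hoxb6 overlapped. In the Hoxa cluster no gene exceeded a mean of 5.09 FPKM (Hoxa5). Hoxb1 and Hoxd13 had 0 reads. The 3 libraries gave a summed Hox level of 238 ± 1.36 FPKM.

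**Figure D3:**
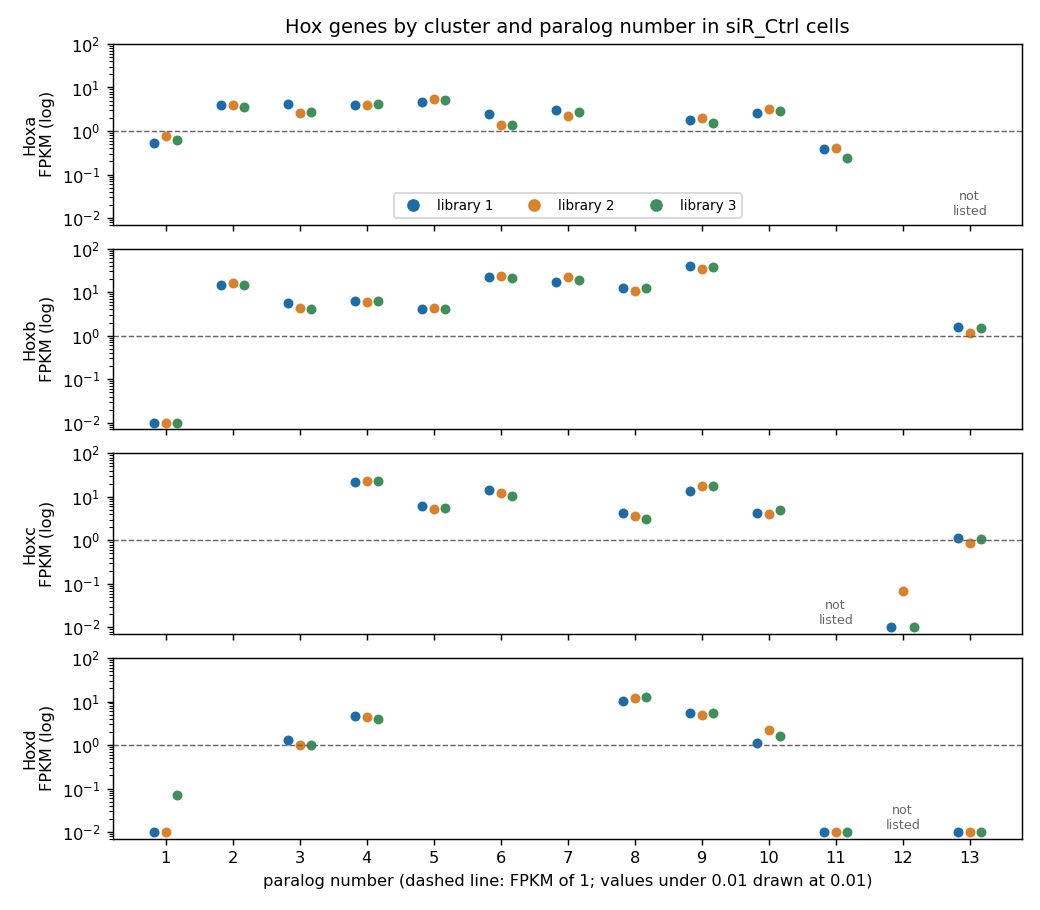
FPKM (log scale) of the Hox genes of each cluster by paralog number, with 1 point for each siR_Ctrl library and a dashed line at an FPKM of 1. All genes of paralogs 2 to 10 lie on or above the line, those of paralog 1 lie below it, and Hoxb13 is the only expressed gene of paralogs 11 to 13.

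The cells expressed the machinery of division throughout. All 20 proliferation genes were expressed, with a median FPKM of 105. Pcna, the replication clamp, stood at 505, 589 and 551 FPKM, Top2a at 184 ± 40.8 FPKM and Mki67 at 87.5, 55.4 and 56.3 FPKM. Among 29 genes of growth control, 26 were expressed. Cdkn2a, the locus of the tumour suppressors p16Ink4a and p19Arf, had FPKM values of 413, 578 and 531, and its target kinase Cdk4 of 378, 484 and 466. Trp53 stood at 124 ± 2.33 FPKM, its target Cdkn1a at 63.8 ± 4.72 FPKM and Rb1 at 5.17 ± 1.18 FPKM. Telomerase (Tert) had a mean FPKM of 0.0733. The oncofetal genes Hmga1 (224 ± 5.83 FPKM), Hmga2 (40.3 ± 9.41 FPKM) and Igf2bp2 (29.0 ± 6.28 FPKM) were expressed, while Lin28b had 5 reads in all. Hmga1b is a near copy of Hmga1 with a mean FPKM of 563, so the split of reads between the pair is uncertain.

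Among imprinted genes, 7 of 21 were expressed. Gnas, the stimulatory G protein, was the highest at 523 ± 18.5 FPKM. Sgce (11.4 ± 0.605 FPKM), Impact (9.35 ± 1.21 FPKM), Igf2r (8.28 ± 3.29 FPKM), Peg10 (6.74 ± 2.36 FPKM), Grb10 (3.86 ± 1.10 FPKM) and Zrsr1 (2.93 ± 0.101 FPKM) were the others. The fetal growth gene Igf2 had 4 reads in all, and Cdkn1c and Plagl1 had 0.

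Of the 25 most abundant genes, 16 were ribosomal protein genes named Rpl or Rps. Rps2 had the highest mean, at 7912 ± 2021 FPKM, but in library 1 its 5727 FPKM lay below that of Eef1a1. All 14 reference genes often used to scale expression were expressed. Near-identical pseudogenes make the levels of ribosomal protein genes, Gapdh and Eef1a1 uncertain. The elongation factor Eef1a1 stood at 6152, 7093 and 6667 FPKM, Gapdh at 4131, 5377 and 5434 FPKM and Pkm at 3423 ± 235 FPKM. The galectin Lgals1 stood at 3041, 5475 and 5201 FPKM and S100a6 at 3346 ± 1149 FPKM. The 10 most abundant genes held 7.84% ± 0.928 of all FPKM, the 100 most abundant 35.9% ± 3.97 and the 1000 most abundant 70.1% ± 4.32. A total of 110 genes reached a mean FPKM of 1000 and held 37.9% of all FPKM but 17.5% of the reads.

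Ifngr1 and Ifngr2, the chains of the IFN-γ receptor, had FPKM values of 41.8, 46.1 and 44.6 and of 36.2, 31.7 and 34.0. Ifngr1 was above Ifngr2 in every library. The type I receptor chains Ifnar1 and Ifnar2 stood at 9.89 ± 1.21 and 31.4 ± 1.86 FPKM. Il10rb, the chain that the type III receptor shares, was expressed at 15.6 ± 0.774 FPKM, but the specific chain Ifnlr1 had 9 reads in all (0.04 ± 0.03 FPKM). Its highest value over all 12 libraries was 0.10 FPKM. Downstream, Jak1 had a mean FPKM of 47.2 ± 11.04, Jak2 of 19.9 ± 3.25, Stat2 of 6.60 ± 0.730 and Irf9 of 6.16 ± 0.499. In all, 16 of 18 interferon receptor and JAK-STAT genes were expressed (88.9%).

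Interleukin receptors were expressed in 16 of 49 cases (32.7%). Pairs with both chains present included Il4ra (12.5 ± 0.372 FPKM) with Il13ra1 (28.0 ± 5.16 FPKM), and Il17ra (6.15 ± 0.496 FPKM) with Il17rc (26.8 ± 2.97 FPKM). The IL-1 receptor chains Il1r1 (9.06 ± 2.32 FPKM) and Il1rap (4.69 ± 1.29 FPKM) and the IL-33 receptor Il1rl1 (6.40 ± 1.19 FPKM) were expressed too. For IL-18 the accessory chain Il18rap stood at 16.2 ± 0.641 FPKM, while the binding chain Il18r1 had 0 reads. Il6st (16.4 ± 7.85 FPKM) and Il6ra (4.06 ± 1.81 FPKM) covered IL-6, and Osmr was just outside with 2.37, 0.99 and 1.33 FPKM. Il22ra1, the epithelial chain of the IL-22 receptor, and Il10ra are not listed.

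Of 28 TNF receptor genes, 11 were expressed. After Tnfrsf12a came the lymphotoxin receptor Ltbr (50.6 ± 4.75 FPKM) and the TNF receptor Tnfrsf1a (45.5 ± 1.53 FPKM). Tnfrsf9 (25.04 ± 1.59 FPKM), the 4-1BB receptor best known from T cells, was expressed in the same libraries as its ligand Tnfsf9 (17.4 ± 1.22 FPKM). Fas stood at 3.42 ± 0.02 FPKM and Cd40 at 0.427 FPKM. Receptors of the TGF-β family were expressed in 8 of 14 cases, led by Tgfbr2 (26.6 ± 5.67 FPKM) and Bmpr1a (18.7 ± 5.54 FPKM).

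Receptor tyrosine kinases were expressed in 23 of 58 cases (39.7%). Axl, which binds Gas6, was the highest at 235.6, 173.8 and 192.0 FPKM. Epha2 stood at 68.3 ± 8.42 FPKM and Fgfr1 at 43.2 ± 4.47 FPKM, whereas Fgfr2, whose splice form serves epithelia, had a mean FPKM of 0.0367. Met (17.8 ± 5.91 FPKM), Erbb2 (17.1 ± 1.24 FPKM) and Egfr (12.2, 6.18 and 7.41 FPKM) were expressed. Integrins were expressed in 9 of 26 cases. Itgb1 (199 ± 38.7 FPKM) and the fibronectin partner Itga5 (87.1 ± 11.5 FPKM) were among the highest, while Itgb4, the integrin of epithelial hemidesmosomes, had a mean FPKM of 0.443 and Itgb6 had 0 reads.

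In the Wnt pathway, 8 of 17 receptor genes were expressed, with Lrp5 (30.6 ± 9.09 FPKM) and Fzd2 (16.9 ± 0.374 FPKM) highest. The ligands Wnt10a (31.7 ± 1.80 FPKM), Wnt6 (12.2 ± 1.15 FPKM), Wnt10b (10.3 ± 1.40 FPKM) and Wnt4 (5.20 ± 0.728 FPKM) were expressed, along with Wls (103 ± 13.9 FPKM) and Porcn (7.02 ± 0.775 FPKM), which serve Wnt secretion. Notch and hedgehog genes were expressed in 6 of 21 cases. Smo stood at 40.1 ± 5.39 FPKM and Notch2 at 11.7 ± 5.22 FPKM, whereas the hedgehog ligand Ihh and the Notch ligand Dll1 had mean FPKM levels of 0.09 and 0.07.

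Among 22 chemokine receptors a single gene was expressed. It was the scavenging receptor Ackr3, at 39.9, 39.4 and 39.5 FPKM. Cxcr4, which shares the ligand Cxcl12 with Ackr3, had 9 reads in all (0.107 ± 0.00577 FPKM). Receptors for lipid and peptide mediators were expressed in 9 of 41 cases, led by the thrombin receptor F2r (25.1 ± 6.68 FPKM) and the sphingosine phosphate receptor S1pr2 (22.9 ± 1.94 FPKM). Of 49 nuclear receptors, 20 were expressed. Rarg (70.9 ± 4.65 FPKM) and Nr2f6 (46.9 ± 3.49 FPKM) were the highest. The vitamin D receptor Vdr stood at 2.89 ± 0.527 FPKM, the bile acid receptor Nr1h4 at 0.493 ± 0.0757 FPKM, and the xenobiotic receptor Nr1i2 had 0 reads.

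Chemokine ligands were expressed in 12 of 38 cases (31.6%), with a median of 2.29 FPKM over the 21 listed. One of them, Ccl17, had 6 reads in library 1 (1.03 FPKM) and fell outside the threshold with TMM or DESeq2 scaling. Ccl2, which draws monocytes, was the highest at 308, 382 and 418 FPKM. Ccl7 followed at 115, 194 and 156 FPKM. The neutrophil chemokines Cxcl5 (121 ± 9.72 FPKM) and Cxcl1 (110 ± 17.9 FPKM), the stromal Cxcl12 (112 ± 7.22 FPKM) and Ccl5 (58.9, 71.1 and 91.0 FPKM) were next, with overlapping ranges for Cxcl5, Cxcl1 and Cxcl12. Cx3cl1 stood at 42.0 ± 4.12 FPKM. Of the IFN-γ-inducible chemokines, Cxcl10 was present at rest at 26.3, 26.6 and 37.0 FPKM, whereas Cxcl9 had 1 read in all and Cxcl11 is not listed. Ccl20, an epithelial chemokine, had 6 reads, and Ccl28 had a mean FPKM of 0.06. Ccl25, the chemokine of the small intestine, stood at 7.22, 8.98 and 8.89 FPKM.

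Of 68 cytokine genes, 15 were expressed (22.1%). Mif, a factor that most cells make, had FPKM values of 1407, 1973 and 1799. Csf1, the growth factor of macrophages, stood at 195, 153 and 169 FPKM, and its alternative ligand Il34 at 9.28 ± 1.35 FPKM. Il15 (9.52 ± 0.747 FPKM), Il7 (6.08 ± 0.896 FPKM), Il33 (5.81 ± 1.66 FPKM), Lif (7.03 ± 1.09 FPKM) and Kitl (7.22 ± 2.03 FPKM) were expressed. Il18, made constitutively by gut epithelium, had a mean FPKM of 1.41 ± 0.211. Il6 had FPKM values of 0.49, 0.68 and 0.92 and Tnf of 0.24, 0.20 and 0.12. Ifnb1 had 0 reads, which allows a pooled FPKM of up to 0.0994. Il1a, Il1b and Ifng are not listed.

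**Figure D4:**
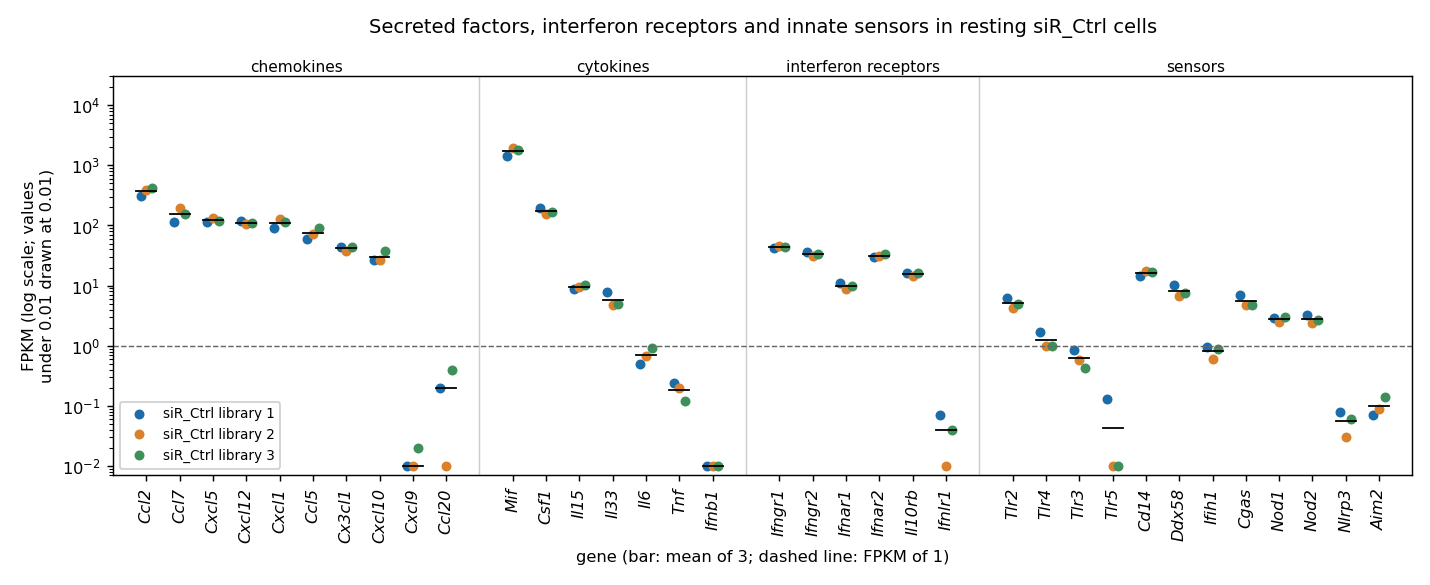
FPKM (log scale) of chemokines, cytokines, interferon receptor chains and innate sensors in each siR_Ctrl library, with a bar at the mean and a dashed line at an FPKM of 1. Ccl2 lies at 308 to 418 and both IFN-γ receptor chains above 30, while Ifnlr1, Cxcl9, Ifnb1 and Nlrp3 lie under 0.1.

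Growth factor genes were expressed in 37 of 74 cases (50%). Granulin (Grn) stood at 144 ± 10.4 FPKM, the matricellular factor Ccn1 at 143 ± 8.06 FPKM, pleiotrophin (Ptn) at 80.4 ± 4.04 FPKM and Vegfa at 73.5 ± 12.1 FPKM. Fgf7, a factor that mesenchyme makes for epithelium, had FPKM values of 34.8, 27.9 and 28.8, and Fgf10 of 5.13, 3.50 and 3.87. Their receptor gene is Fgfr2, given above at 0.0367 FPKM. The BMP inhibitor Grem1 had FPKM values of 164, 49.6 and 63.9, so its mean of 92.5 ± 62.3 FPKM rested on library 1 and was 56.8 FPKM without it. Of the EGF family, Hbegf (23.1 ± 1.44 FPKM), Areg (20.2 ± 1.81 FPKM), Ereg (7.22 ± 2.25 FPKM), Nrg1 (5.29 ± 0.932 FPKM), Btc (1.67 ± 0.451 FPKM) and Tgfa (1.52 ± 0.488 FPKM) were expressed, and Egf had a mean FPKM of 0.27. Hgf was not expressed, at 1.38, 0.76 and 0.78 FPKM.

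Matrix genes were expressed in 26 of 40 cases of basement membrane and matrix (65%). The proteoglycan Bgn was the highest at 598, 475 and 542 FPKM. The basement membrane collagens Col4a1 (89.6 ± 21.2 FPKM) and Col4a2 (68.1 ± 18.1 FPKM) and the laminin chains Lamb1 (59.0 ± 10.3 FPKM) and Lamc1 (40.4 ± 15.1 FPKM) were expressed. Of the laminin α chains, Lama5 stood at 10.8 ± 3.85 FPKM, Lama3 of epithelial laminin-332 at 0.08 FPKM and Lama4 at 0.0567 FPKM. Lama1 is not listed. Of 49 proteases and inhibitors, 30 were expressed (61.2%). Ctsl (542 ± 56.9 FPKM), the cystatin genes Cstb (419 ± 87.7 FPKM) and Cst3 (375 ± 63.2 FPKM), the collagen chaperone Serpinh1 (342 ± 31.8 FPKM) and Timp1 (287 ± 59.4 FPKM) were among the highest. Mmp14 stood at 42.2 ± 1.47 FPKM and Mmp13 at 0.12 FPKM. The inhibitors of epithelial surface proteases Spint1 and Spint2 had mean FPKM levels of 0.153 and 0.0167.

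Antimicrobial genes were expressed in 5 of 36 cases (13.9%). Complement C3 had FPKM values of 16.91, 12.64 and 16.04, Rnase4 of 9.32, 13.2 and 11.4, and Nos2, the inducible nitric oxide synthase, of 5.73, 3.11 and 4.78. Lcn2 was just outside with 1.74, 1.48 and 0.90 FPKM. The oxidase genes Nox1 and Duox2 had mean FPKM levels of 0.13 and 0.0233. Reg3b, Reg3g and Pigr are not listed.

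Toll-like receptors, the membrane sensors of microbial products, were expressed for 2 members of the family. Tlr2 had FPKM values of 6.18, 4.24 and 5.04 and Tlr4 of 1.67, 1.01 and 1, so that Tlr4 lay at the threshold and fell outside it with DESeq2 size factors. Its coreceptors Cd14 (16.1 ± 1.53 FPKM) and Ly96 (6.08 ± 1.19 FPKM) were higher than Tlr4 in every library. Tlr3, the sensor of double-stranded RNA, was not expressed (0.84, 0.58 and 0.43 FPKM), and the flagellin receptor Tlr5 had 7 reads in all. The adaptors Myd88 (16.5 ± 0.458 FPKM) and Ticam1 (6.45 ± 0.499 FPKM) and the kinase Irak1 (22.1 ± 3.57 FPKM) were expressed. In all, 14 of 29 genes of the Toll-like receptor pathway were expressed (48.3%).

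Of the cytosolic sensors of nucleic acids and their partners, 16 of 24 genes were expressed (66.7%). The RNA sensor Ddx58 (RIG-I) had FPKM values of 10.2, 6.69 and 7.46, while Ifih1 (MDA5) was outside with 0.96, 0.61 and 0.89 FPKM. Their adaptor Mavs stood at 14.2 ± 1.02 FPKM. The DNA sensor Cgas (5.54 ± 1.27 FPKM) and its adaptor Tmem173 (STING, 20.1 ± 1.16 FPKM) were both expressed. Aim2 had a mean FPKM of 0.10 ± 0.0361 and the synthetases Oas2 and Oas3 of 0.0567 and 0.0833.

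Of 35 NOD-like receptor and inflammasome genes, 10 were expressed. Nod1 (2.80 ± 0.309 FPKM) and Nod2 (2.76 ± 0.452 FPKM) had overlapping ranges, and their kinase Ripk2 stood at 15.1 ± 0.880 FPKM. Nlrp3 had 11 reads in all and Casp1 had 5, and Pycard and Nlrc4 are not listed. The noncanonical genes Casp4 (6.80 ± 0.224 FPKM) and Gsdmd (9.51 ± 1.34 FPKM) were expressed. For necroptosis the effector Mlkl stood at 39.7, 39.8 and 40.9 FPKM, Ripk1 at 13.9 ± 1.68 FPKM and Ripk3 at 0.09 ± 0.0721 FPKM. Among lectins and scavenger receptors, 6 of 24 were expressed, with Lgals3 (470 ± 96.0 FPKM) next to Lgals1 and with Lgals4, the galectin of gut epithelium, at 0.103 FPKM.

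Interferon-stimulated genes were partly on at rest, with 25 of 38 expressed (65.8%). Ifitm2 (305 ± 49.0 FPKM) and Ifitm3 (221, 330 and 351 FPKM) and the class I genes B2m (281 ± 23.8 FPKM) and H2-K1 (214 ± 25.3 FPKM) were the highest. Isg15 had FPKM values of 51.9, 80.3 and 102, and Irf1 of 47.0, 50.7 and 55.1. The GTPase genes varied, with Irgm1 at 9.97 ± 0.363 FPKM, Igtp at 1.91, 1.90 and 3.65 FPKM and Gbp2 at 4.40, 2.70 and 5.97 FPKM. Iigp1 was at 0, 0 and 0.32 FPKM, and Rsad2 had a mean FPKM of 0.09. For Isg15, Igtp and Gbp2 library 3 was the highest. Ciita, the activator of class II genes, had a mean FPKM of 0.0433, whereas the invariant chain Cd74 stood at 7.62 ± 1.01 FPKM.

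The deposited annotation gave further abundant products. Its classes count listed genes only, so their shares stand beside the 68.1% of all listed genes. Among 948 genes annotated to the extracellular space, 456 were expressed (48.1%), and many of the highest, such as Ppia and Pgk1 (2489 ± 168 FPKM), act mainly inside cells. S100a11 (1968 ± 321 FPKM), Anxa2 (1406 ± 233 FPKM) and Fabp5 (649 ± 205 FPKM) were among the 15 highest. Of 192 genes annotated as signaling receptors, 65 were expressed (33.9%), with the scaffold Rack1 (1448 ± 263 FPKM) and Bsg (944 ± 119 FPKM) highest. Of 1208 transcription factors, 824 were expressed (68.2%). Ybx1 (517 ± 22.8 FPKM), Atf4 (283 ± 49.3 FPKM), a factor of the stress response, and Tsc22d1 (191 ± 4.51 FPKM) were among the highest.

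Promoter sequence differed with the level. The observed over expected ratio of CpG dinucleotides in the 250 bases before the start is the number of CG pairs set against that expected from the C and G content. Its median was 0.342 for 1957 genes with a mean FPKM under 0.1, 0.457 for 1447 genes from 0.1 to 1, and 0.720 for 3190 genes from 1 to 10. It was 0.781 for 4439 genes from 10 to 100 and 0.796 for 850 genes at or above 100. Of the listed genes, 11883 had a window. S100a4 (0.098) and Vim (0.376) stood below the median of the highest class, as did the abundant Gapdh (0.422), Eef1a1 (0.652), Sparc (0.220) and S100a6 (0.192). The marker Krt8 (0.143) lay below the median of its own class, from 0.1 to 1. Krt18 (0.527) lay above the median of its own class, under 0.1. Epcam (0.405) has no level and so no class here. TATAAA in the position given above was found in 3.22% of the lowest class and 3.73% of the class from 0.1 to 1. It was found in 0.972% of the class from 1 to 10, 0.766% of that from 10 to 100 and 1.53% of the highest class. CAGGTG or CACCTG was found in 23.4% of the lowest and 10.8% of the highest class. These shares are a description over genes of 3 libraries and were not tested.

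The libraries agreed in rank and differed by transcript length. Over the expressed genes, Spearman's rho was 0.9965 between libraries 2 and 3. It was 0.9793 between 1 and 3 and 0.9699 between 1 and 2. Across the 10220 expressed genes, Pearson's r of log2(FPKM + 1) was 0.9972 between libraries 2 and 3, 0.9832 between 1 and 3 and 0.9756 between 1 and 2, all measured over genes that share a library's depth and length profile. The median absolute log2 difference was 0.107, 0.249 and 0.313 for the same pairs. The log2 ratio of TPM in library 1 over library 2 was larger for longer transcripts (Spearman's rho 0.839 over genes), as it was over library 3 (0.812), and that of library 2 over library 3 was smaller for longer transcripts (-0.553). In the shortest of 10 length groups of expressed genes (median 649 nt) the median log2 ratio of TPM to the mean of the 3 was -0.175 in library 1, 0.091 in library 2 and 0.057 in library 3. In the longest group (median 7149 nt) it was 0.610, -0.599 and -0.299. Lmbrd2 had the largest SD of log2(FPKM + 1) of the 8250 genes whose mean FPKM reached 5, at 11.3, 1.79 and 3.16 FPKM, and Grem1 and Ago2 (16.4, 4.34 and 5.87 FPKM) were also among the 10 most variable. Library 1 was the highest for each of these 3. The part of length in the level of any single gene was not tested.

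**Figure D5:**
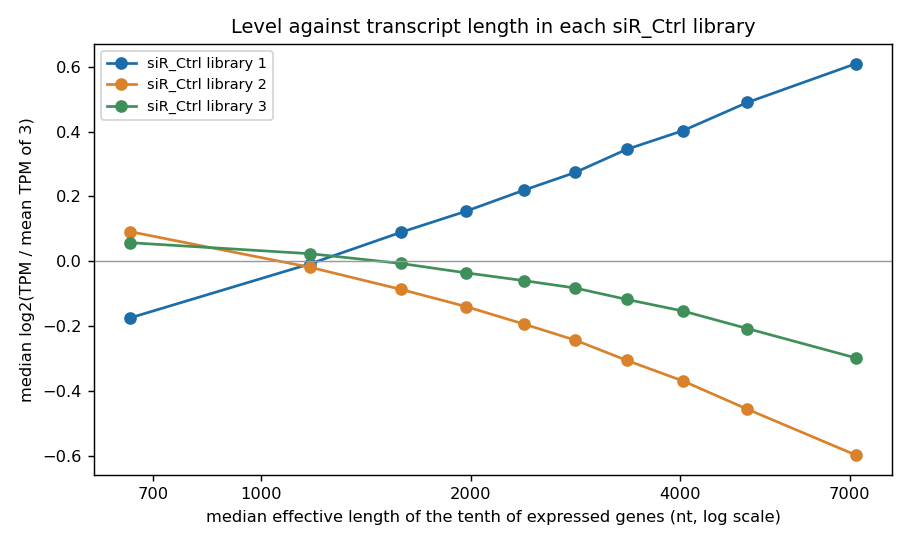
Median log2 ratio of a gene's TPM to its mean over the 3 siR_Ctrl libraries, in 10 groups of 1022 expressed genes ordered by effective length (nt, log scale), with 1 line for each library. Library 1 runs from -0.175 for the shortest to 0.610 for the longest genes, while library 2 runs from 0.091 to -0.599 and library 3 from 0.057 to -0.299.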

How the data were processed

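RNA enriched with oligo(dT) was sequenced from IEC4.1 cells. Per the study's methods, reads were filtered with SOAPnuke and aligned with HISAT2 and Bowtie2 to GRCm38.p6. The submitters' processing notes name HISAT, HISAT2, mm10 and GRCm38.p6. How reads were assigned to genes is not stated in these sources. The authors deposited, for each of 15002 genes listed as mRNA, an estimated count of reads, an FPKM and a TPM in each library. The authors scaled the deposited FPKM for length and depth (their methods write RPKM). The authors' TPM has a fixed sum, which the listed genes nearly reach. Read totals were 17952446 to 18253330 in siR_Ctrl. Low levels are given as FPKM or as reads, those of Krt8 and Krt18 also with an exact two-sided 95% Poisson interval. For a count of 0 the limit is 3 reads over the 3 libraries, a one-sided 95% bound, which is tighter than such an interval.

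Groups came from the labels. The 3 siR_Ctrl libraries were described with no test between genes. Expressed was an FPKM of at least 1 in all 3. Effective length was the median implied by count and FPKM. The 52 gene lists hold 1289 genes, of which 930 were matched by symbol and 507 were expressed. Genes named come from the 25 highest, up to 8 expressed and 8 unexpressed members and the first members of each list, the 15 highest of each annotation class and the 10 most variable, with others added after their values were seen. The members and lists were chosen with earlier results of these data known. Coordinates and promoter windows (250 bases before to 50 after the start, the first window of each gene) are from RefSeq GRCm38.p6. Protein sequences were not used here, and some members of the lists are not reported here.

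Calls were made in Python with pandas and tested on simulated data. Alternatives were other thresholds, TPM, the mean, a minimum of 10 reads, TMM (edgeR 4.0.16) and DESeq2 1.42.0 scaling (R 4.3.3), another pseudocount, and each library left out.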

Additional observations from a re-analysis of the deposited data

How the results depend on the processing

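No paired analysis was possible because no result came from a test between groups. The count of 10220 expressed genes ranged from 7822 at an FPKM of 5 to 10789 at an FPKM of 0.5, and from 10265 to 10325 with a library left out. The 507 expressed list members ranged from 361 to 555 over the same thresholds, and from 508 to 515 with a library left out. The fibroblast and transition list had 29 expressed members in every alternative except an FPKM of 5, which gave 26, and of the defining epithelial markers the listed Krt8 and Krt18 were expressed in none. At an FPKM of 5, 22 of 52 lists moved by over 1.5 times, at 0.5 FPKM 4 did, with TPM 1 did, and without library 2 the goblet list went from 0 to 1. With DESeq2 size factors Hoxd3, Tlr4 and Ccl17 were no longer expressed and Osmr was, which left 27 Hox genes, 13 genes of the Toll-like receptor pathway and 11 chemokines. With TMM scaling Ccl17 was lost and Osmr and Gli1 were gained, and the minimum of 10 reads removed Ccl17 and Saa3. The share of the 10, 100 and 1000 most abundant genes was 5.45%, 19.3% and 52.8% of the estimated counts, which are not scaled for length, and 7.47% to 8.36%, 34.3% to 38.1% and 68.4% to 72.6% of FPKM with a library left out. The median absolute log2 difference between libraries was 0.223 on average over pairs and 0.107 to 0.313 with a library left out, lowest without library 1. It was 0.314 on TPM. Of 20 named levels, 0 moved by more than 1 SD with TMM scaling and 19 did on TPM, which is another unit. With a library left out, the mean of Krt18 fell from 0.05 to 0.025 FPKM without library 3, and the other 19 moved by less than 1.5 times. Depth limits genes of a few reads, for which presence below 3 reads cannot be shown.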
